A study of Mus musculus with 32 samples.

Results

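The genes described here encode nuclear subunits of oxidative phosphorylation, with a few of its assembly factors, and were measured in mouse liver. They were taken by symbol from the probe-to-gene table of the array: all names that start with Nduf, Sdha, Sdhb, Sdhc, Sdhd, Uqcr, Cox4, Cox5, Cox6, Cox7, Cox8 or Atp5. Of 83 such genes 79 were detected on at least 8 of 32 arrays and were kept, each with its brightest probe, among 8853 genes tested in all. Named for complex I were 37, for complex II 7, for complex III 6, for complex IV 13 and for complex V 16. Ndufaf3 (detected on 4 arrays), Cox6b2 (7 arrays), Ndufb11 (1 array) and Uqcrq (1 array) missed the limit. Of the 79, 75 were detected on all 32 arrays.

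All livers came from female ApoE3Leiden mice, a transgenic strain with a variant of human apolipoprotein E that develops high plasma cholesterol on a cholesterol-rich feed. The groups were a high-cholesterol diet with rosuvastatin and ezetimibe (HC+RSV+EZE), with ezetimibe (HC+EZE), with rosuvastatin (HC+RSV) and alone (HC), so that every mouse ate the diet. Rosuvastatin inhibits cholesterol synthesis, and ezetimibe blocks the uptake of cholesterol in the gut. Each group held 8 livers, 1 liver per Illumina bead array; the sources used here do not give age, dose or time on the diet. The tissue was whole liver, so fewer cells of a type and less RNA per cell cannot be told apart.

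Oxidative phosphorylation is the last stage of fuel burning in mitochondria. Complex I takes electrons from NADH and complex II from succinate, complex III passes them to cytochrome c, complex IV hands them to oxygen, and complex V, the ATP synthase, makes ATP from the proton gradient that results. Hepatocytes are rich in mitochondria and spend this ATP on glucose, urea, lipid and protein synthesis. Nuclear respiratory factor 1 (NRF-1), ETS proteins such as GABP, YY1 and the estrogen-related receptors are known regulators of the nuclear genes.

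Promoters are shown for this reason, 1 for each complex from I to V: the member with most matches to the motifs marked (among equals a member named by rule, then by alphabet). RefSeq's promoter table (GRCm38.p6; 250 bases before to 50 after each annotated start) held 68 of the 79 members; Atp5a1, Atp5mpl, Cox4i1, Cox6a2, Cox6c, Ndufa2, Ndufb9, Ndufs5-ps, Sdhc, Uqcrb and Uqcrc2 were not matched. Each line gives the 150 bases before the start, 5′ to 3′ on the gene's strand, which is the minus strand for all 5. The stretches are chr16:37654369-37654518 for Ndufb4, chr9:50603850-50603999 for Sdhd, chr10:80406822-80406971 for Uqcr11, chr5:115348959-115349108 for Cox6a1 and chr11:115419920-115420069 for Atp5h. Capitals mark matches on either strand to the motifs of NRF-1, ETS proteins (CCGGAAG) and estrogen-related receptors (TNAAGGTCA).
Ndufb4: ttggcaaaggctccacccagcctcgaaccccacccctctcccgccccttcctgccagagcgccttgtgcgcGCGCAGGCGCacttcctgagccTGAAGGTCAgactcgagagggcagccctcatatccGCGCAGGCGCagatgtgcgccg
Sdhd: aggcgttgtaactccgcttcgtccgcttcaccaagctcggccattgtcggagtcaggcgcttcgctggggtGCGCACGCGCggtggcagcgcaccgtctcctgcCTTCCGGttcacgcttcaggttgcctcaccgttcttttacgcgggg
Uqcr11: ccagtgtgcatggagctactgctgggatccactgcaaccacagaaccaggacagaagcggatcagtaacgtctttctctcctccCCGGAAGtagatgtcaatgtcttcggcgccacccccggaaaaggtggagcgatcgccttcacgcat
Cox6a1: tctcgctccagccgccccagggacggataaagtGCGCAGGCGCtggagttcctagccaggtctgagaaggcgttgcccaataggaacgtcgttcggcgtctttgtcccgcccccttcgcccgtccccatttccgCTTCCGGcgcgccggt
Atp5h: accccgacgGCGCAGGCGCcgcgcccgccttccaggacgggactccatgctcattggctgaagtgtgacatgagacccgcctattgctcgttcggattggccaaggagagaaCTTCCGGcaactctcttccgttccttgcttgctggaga
Ndufb4 held NRF-1 matches that begin 79 and 22 bases before the start and an estrogen-related receptor match 57 before it. Sdhd held an NRF-1 match 79 and an ETS match 46 bases before the start, Cox6a1 117 and 16 before, and Atp5h 141 and 38 before. Uqcr11 held an ETS match 66 bases before the start.

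Over the whole windows, searched on both strands, the NRF-1 motif was found in 17 of 68 member promoters (25%), against 4.78% of 27025 promoters of all genes. Given the same way, the ETS motif was found in 19 (27.9%, against 9.12%), the estrogen-related receptor motif in 3 (4.41%, against 1.25%) and that of YY1 in 5 (7.35%, against 1.07%). The CREB motif TGACGTCA was in 2 (2.94%, against 1.87%) and the Sp1 motif GGGGCGGGG in 11 (16.2%, against 11.6%). No matches of different motifs overlapped in the members' windows. These shares describe letters in a window and not bound sites.

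The arrays lay on 6 chips, each with arrays of all 4 groups, so that chip could be set beside diet. Arrays with ezetimibe sat at positions F to H and arrays without it at A to C, so position and ezetimibe cannot be told apart. Raw mean intensity lay between 126.1 and 279.9 on single arrays, which detected 10724 to 13444 probes. Of 10 hepatocyte markers 9 were measured, all but Tf. Values below are normalized log2 intensities, on which a step of 1 is a factor of 2. Since the level of 1 probe is not comparable with that of another, each gene was also set against its own median over the 32 arrays, called its deviation.

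In 4 livers most of these genes stood below their usual level, far below it in all but HC+RSV replicate 3, where the gap was smaller. The arrays were HC+EZE replicate 1, HC+RSV replicate 3, HC replicate 1 and HC replicate 8, whose mean correlation with all other arrays was lowest (0.951, 0.926, 0.937 and 0.95, against 0.962 to 0.973). Where 4 values are given together below, they follow this order of livers. The median deviation of the 79 genes was -1.23, -0.73, -1.43 and -1.40. On the linear scale a gene at these medians had 42.5%, 60.2%, 37.2% and 37.8% of its usual signal. In the other 28 livers the median deviation lay between -0.45 and 0.23. The arrays were picked out from the same table of values, so these figures are descriptions and carry no test.

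**Figure D1:**
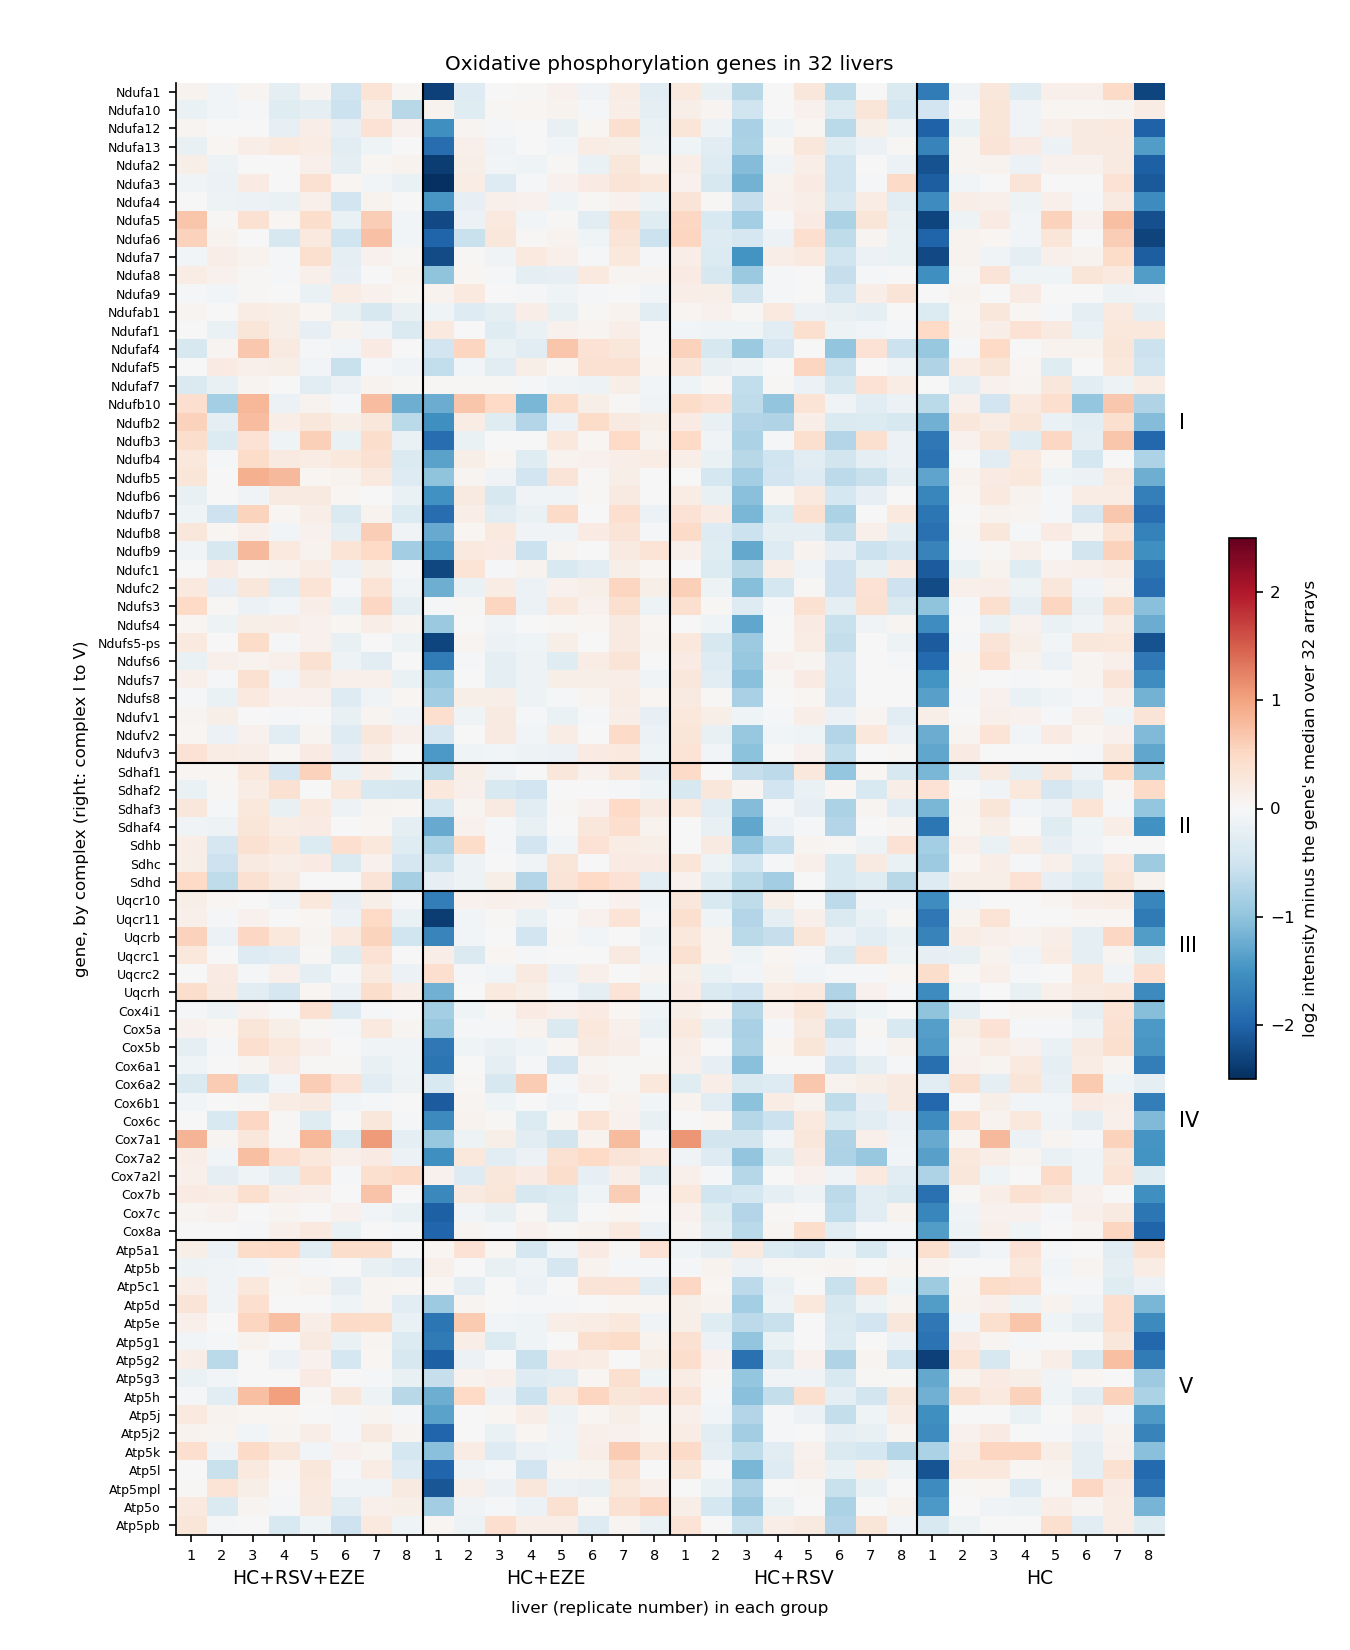
Deviation of each of the 79 genes (rows, by complex I to V) from its own median log2 intensity over 32 arrays, in each liver (columns, by group and replicate number); blue is lower and red higher. The blue columns are HC+EZE replicate 1, HC+RSV replicate 3, HC replicate 1 and HC replicate 8, crossed by pale or red rows such as Atp5b, Uqcrc2 and Ndufv1.

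Of the 79 genes, 45 were more than 1 below their median in HC+EZE replicate 1, against 4.7% of all genes tested. The count was 17 in HC+RSV replicate 3 (all genes 9.15%), 57 in HC replicate 1 (all genes 8.01%) and 54 in HC replicate 8 (all genes 5.37%). In each of the other 28 livers 0 or 1 of the 79 was that low, against 0.0791% to 1.99% of all genes. For 46 of the 79 genes these were the 4 lowest arrays of the 32, which held for 5.82% of all genes. Another 16 genes had 3 of them among their 4 lowest arrays, 4 genes had 2, 6 genes had 1 and 7 genes had 0. For these last counts no share of all genes is given, so they only complete the 79. HC+RSV+EZE held no such liver. HC+RSV replicate 6 came next, with a median deviation of -0.45 and 75 of 79 genes under their own median (all genes 48.9%).

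The median of each of the 5 complexes was low in these livers. For complexes I to V the median deviations were -1.34, -0.55, -1.43, -1.60 and -1.14 in HC+EZE replicate 1 and -0.81, -0.66, -0.55, -0.72 and -0.81 in HC+RSV replicate 3. They were -1.57, -0.91, -1.56, -1.39 and -1.41 in HC replicate 1 and -1.40, -0.88, -1.5, -1.48 and -1.15 in HC replicate 8. Complex II lay nearest to its usual level in HC+EZE replicate 1 and in both HC livers. Of its 7 genes 4 are assembly factors. In HC replicate 8 its subunits Sdhb, Sdhc and Sdhd deviated by 0.00, -0.88 and 0.08.

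**Figure D2:**
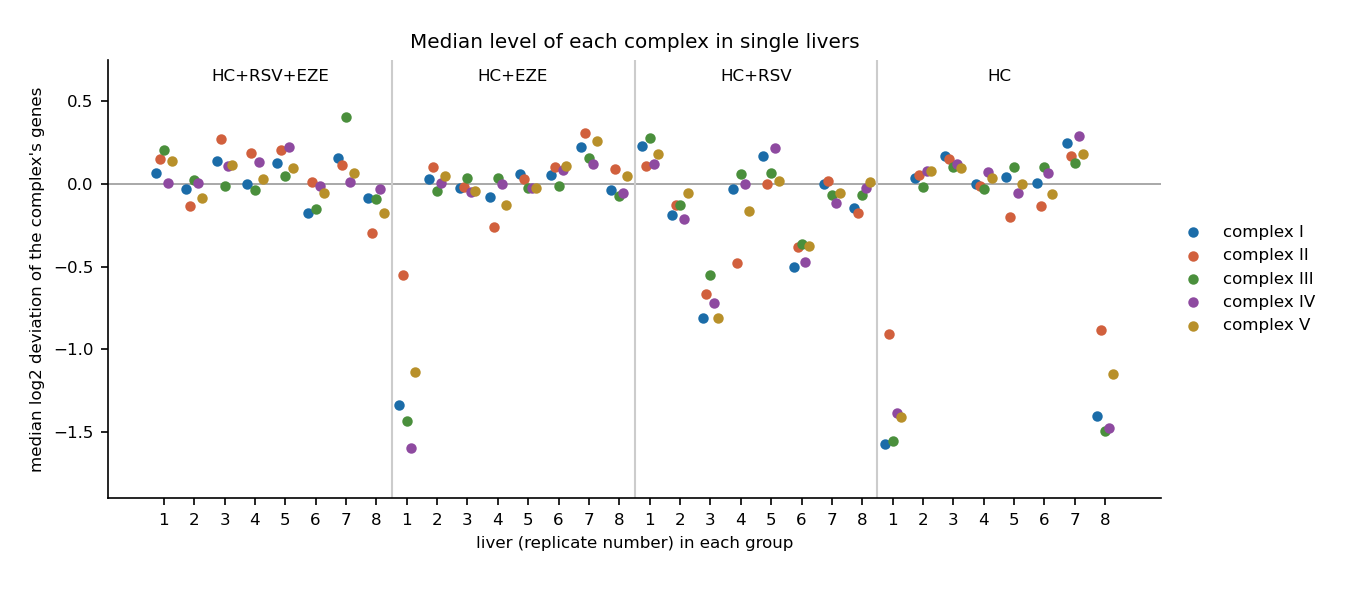
Median log2 deviation of the genes of each complex (colours) in each liver (x axis, by group and replicate number). HC+EZE replicate 1, HC+RSV replicate 3, HC replicate 1 and HC replicate 8 lie below every other liver in each of the 5 complexes, and HC+RSV+EZE holds no such liver.

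These livers also stood apart over all genes, by the correlations and the shares of all genes given above. Mean intensity and the number of detected probes did not separate all 4 from the rest. Mean intensities were 197.5, 126.1, 247.6 and 204.6, of which the second was the lowest of all arrays and the others lay inside the range of the rest (130.0 to 279.9). Detected probes numbered 11790, 11217, 12615 and 12559, against 10724 to 13444. The livers lay on chips 3, 1, 4 and 5, each beside arrays at the usual level.

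Complex I is the largest group, and most of its accessory subunits, which surround the catalytic core, were low in the 4 livers. Ndufa5, in the arm that reaches into the matrix, had a lowest, median and highest level of 9.49, 9.88 and 10.35 in HC+RSV+EZE and 7.41, 9.55 and 10.07 in HC+EZE. These were 8.82, 9.56 and 10.18 in HC+RSV and 7.37, 9.69 and 10.42 in HC. The lowest values in HC+EZE, HC+RSV and HC belonged to replicates 1, 3 and 1, and all groups overlapped. Ndufa5 deviated by -2.26, -0.84, -2.30 and -2.19 in the 4 livers, against -0.79 at the lowest elsewhere. In HC+EZE replicate 1 Ndufa3 deviated by -2.53, the lowest value there, and Ndufa2, Ndufa7 and Ndufc1 by -2.38, -2.23 and -2.27. Ndufa13, whose probe was the brightest of the complex, deviated by -1.91, -0.80, -1.67 and -1.40. More than 1 below their median were 23, 10, 28 and 27 of the 37.

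The core subunits of complex I, most of which carry the flavin or iron-sulfur clusters, were not all alike. Ndufs7 deviated by -0.97, -1.05, -1.49 and -1.54 and Ndufs8 by -0.87, -0.82, -1.35 and -1.17. Ndufv2 deviated by -0.42, -0.94, -1.24 and -1.11 and Ndufs3 by -0.06, -0.32, -1.0 and -1.04. Ndufv1, the flavoprotein that accepts electrons from NADH, deviated by 0.41, -0.11, 0.15 and 0.33. Ndufv1 was thus at or above its usual level in 3 of the 4 livers. Its levels were 10.99, 11.17 and 11.32 in HC+RSV+EZE, 10.96, 11.13 and 11.58 in HC+EZE, 10.91, 11.18 and 11.43 in HC+RSV and 11.07, 11.29 and 11.50 in HC (lowest, median, highest), with wide overlap. The accessory subunits Ndufa9 (0.09, -0.45, -0.02 and -0.08) and Ndufa10 (0.10, -0.51, -0.48 and 0.19) also lay nearer to their medians. Of the assembly factors, which help to build the complex without staying in it, Ndufaf1 deviated by 0.25, -0.11, 0.49 and 0.27 and Ndufaf7 by 0.03, -0.61, 0.02 and 0.18. Ndufaf4 deviated by -0.47, -0.93, -0.95 and -0.55 and Ndufaf5 by -0.62, -0.13, -0.74 and -0.50, both below their medians in all 4.

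A few names need care. The probe listed as Ndufs5-ps carries the name of a transcribed pseudogene, a near-identical copy, so its signal cannot be assigned to one of them; it deviated by -2.30, -0.91, -2.09 and -2.17. Ndufa4 (-1.45, -0.58, -1.57 and -1.58) was named for complex I and is now counted with complex IV. Ndufab1, the mitochondrial acyl carrier protein, was dim, detected on 25 arrays, and deviated by -0.10, 0.03, -0.34 and -0.24.

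Complex II, succinate dehydrogenase, links the chain to the TCA cycle. Its membrane anchor Sdhd had a lowest, median and highest level of 6.16, 7.10 and 7.48 in HC+RSV+EZE, 6.26, 6.99 and 7.49 in HC+EZE, 6.12, 6.65 and 7.09 in HC+RSV and 6.64, 7.10 and 7.35 in HC. Sdhd deviated by -0.20, -0.66, -0.33 and 0.08 in the 4 livers, and its lowest livers were others. The other anchor, Sdhc, deviated by -0.55, -0.50, -0.91 and -0.88, and the iron-sulfur subunit Sdhb by -0.79, -0.96, -0.85 and 0.00. The assembly factors ranged more widely. Sdhaf4, which helps to join the flavoprotein to the rest, deviated by -1.27, -1.29, -1.81 and -1.51. Sdhaf3 (-0.45, -1.09, -1.15 and -0.97) and Sdhaf1 (-0.67, -0.58, -1.14 and -1.01), which serve the iron-sulfur subunit, were also low. Sdhaf2, needed to attach the flavin, lay above its median in all 4 livers, at 0.27, 0.07, 0.37 and 0.48.

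Complex III was divided between its small subunits and its core proteins. The small subunit Uqcr11 had a lowest, median and highest level of 12.18, 12.36 and 12.83 in HC+RSV+EZE and 9.97, 12.32 and 12.67 in HC+EZE. These were 11.61, 12.20 and 12.74 in HC+RSV and 10.55, 12.35 and 12.67 in HC. The group medians lay close together, while the lowest livers of HC+EZE and HC, replicate 1 in each, were far below them. Uqcr11 deviated by -2.37, -0.73, -1.79 and -1.77, Uqcr10 by -1.73, -0.63, -1.54 and -1.64, Uqcrb by -1.66, -0.67, -1.68 and -1.40 and Uqcrh, the hinge protein, by -1.21, -0.47, -1.57 and -1.59. The core proteins did not follow: Uqcrc1 deviated by 0.17, -0.11, -0.21 and -0.31 and Uqcrc2 by 0.41, -0.06, 0.44 and 0.43.

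In complex IV, cytochrome c oxidase, all 13 genes lay below their medians in HC+RSV replicate 3, HC replicate 1 and HC replicate 8, and all but Cox7a2l in HC+EZE replicate 1. Cox6b1, which faces cytochrome c, had a lowest, median and highest level of 12.29, 12.37 and 12.59 in HC+RSV+EZE, 10.29, 12.34 and 12.47 in HC+EZE, 11.35, 12.32 and 12.59 in HC+RSV and 10.40, 12.34 and 12.58 in HC. Its group medians were nearly level, and its deviations were -2.08, -1.02, -1.97 and -1.72. Cox6a1, the form of subunit VIa made outside muscle, deviated by -1.82, -1.05, -1.88 and -1.72. Cox4i1, the ubiquitous form of the regulatory subunit IV, had smaller deviations of -0.85, -0.71, -1.0 and -1.07. Cox7a2l, known as a factor of supercomplexes, deviated by 0.10, -0.70, -0.76 and -0.29.

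Forms known from heart and skeletal muscle were also measured. Cox7a1, the muscle form of subunit VIIa, was detected on 32 arrays, with 5.87, 6.40 and 7.29 in HC+RSV+EZE, 5.26, 6.13 and 7.01 in HC+EZE, 5.47, 6.15 and 7.33 in HC+RSV and 4.74, 6.23 and 7.03 in HC (lowest, median, highest). Its counterpart of other tissues, Cox7a2, had 6.88, 7.22 and 7.78 in HC+RSV+EZE, 5.51, 7.29 and 7.52 in HC+EZE, 6.04, 6.71 and 7.23 in HC+RSV and 5.54, 7.01 and 7.33 in HC. Both overlapped across all groups. Cox6a2, the muscle form of subunit VIa, was near background, detected on 3, 5, 5 and 3 of 8 arrays in HC+RSV+EZE, HC+EZE, HC+RSV and HC. None of 9 muscle and heart markers passed the filter on dim probes.

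Complex V showed both patterns in its F1 part, which holds the catalytic head. The alpha subunit Atp5a1 deviated by 0.05, 0.25, 0.40 and 0.37 and the beta subunit Atp5b, which carries the catalytic site, by 0.12, -0.15, 0.09 and 0.18. The smaller F1 subunits delta (Atp5d, -0.90, -0.85, -1.39 and -1.13) and epsilon (Atp5e, -1.81, -0.65, -1.78 and -1.59) were low in all 4 livers. Atp5c1, also of F1, was mixed (0.04, -0.65, -0.88 and -0.14). Atp5b had 13.71, 13.89 and 14.03 in HC+RSV+EZE, 13.55, 13.94 and 14.08 in HC+EZE, 13.81, 13.99 and 14.05 in HC+RSV and 13.73, 13.99 and 14.22 in HC (lowest, median, highest). Atp5e had 7.12, 7.60 and 8.04 in HC+RSV+EZE, 5.49, 7.34 and 7.95 in HC+EZE, 6.64, 6.96 and 7.59 in HC+RSV and 5.51, 7.21 and 7.98 in HC. The groups overlapped for both, and the low ends of HC+EZE and HC reached down for Atp5e alone. The c ring is made from 3 genes for the same mature protein: Atp5g1 deviated by -1.76, -0.98, -1.85 and -1.96, Atp5g2 by -2.03, -1.86, -2.33 and -1.76 and Atp5g3 by -0.58, -0.97, -1.27 and -0.90. Their group medians in HC+RSV+EZE, HC+EZE, HC+RSV and HC were 11.72, 11.78, 11.59 and 11.74 for Atp5g1, 7.95, 8.03, 7.88 and 7.84 for Atp5g2 and 13.83, 13.82, 13.81 and 13.87 for Atp5g3. Atp5l, subunit g of the membrane part, deviated by -1.98, -1.14, -2.15 and -1.94. In the peripheral stalk Atp5j (-1.33, -0.74, -1.53 and -1.42) and Atp5o (-0.87, -0.90, -1.43 and -1.17) were low, and Atp5pb less so (0.04, -0.56, -0.38 and -0.30).

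**Figure D3:**
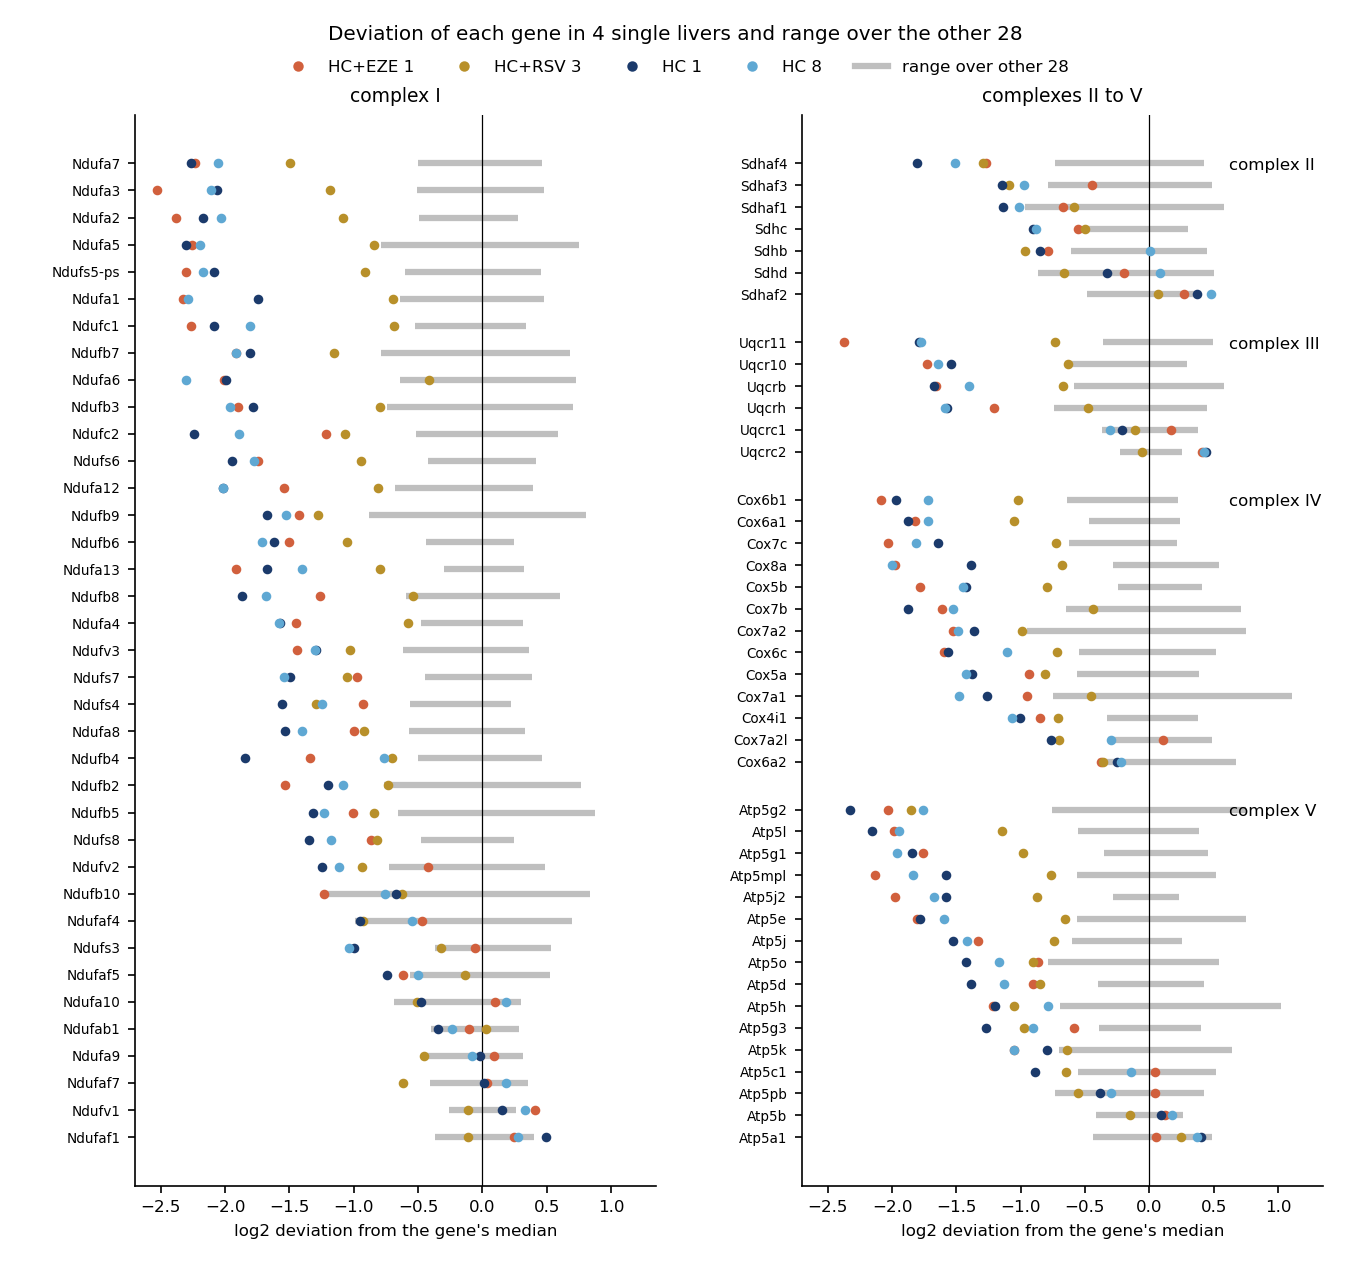
Deviation of each gene from its own median (log2) in HC+EZE replicate 1, HC+RSV replicate 3, HC replicate 1 and HC replicate 8 (points), with the range over the other 28 livers as a grey bar, by complex. Most points lie below the bars; those of Ndufv1, Sdhaf2, Uqcrc2, Atp5a1 and Atp5b lie in or above them.

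Second probes were compared where a gene had them, which was so for 13 members with 31 probes. The second probe of Cox6b1 deviated by -2.34 in HC+EZE replicate 1 and -2.11 in HC replicate 1, beside -2.08 and -1.97 for the brightest. The 4 probes of Ndufs4, an accessory subunit of complex I, deviated by -1.55 to -1.34 in HC replicate 1. A dim probe of Ndufv3, detected on 17 arrays, went the other way (0.39, -0.02, 0.25 and 0.52), while its other probes were low. The dimmer probe of Ndufb6, an accessory subunit of complex I, deviated by 0.08 in HC replicate 8, beside -1.71 for the brightest. The other Sdhb probes deviated by -0.89 and -0.36 in HC replicate 8, where the brightest was at 0.00. A dim probe of Ndufaf5, detected on 14 arrays, deviated by 0.35 there, beside -0.50.

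Members with and without the promoter motifs were both low. The 17 with an NRF-1 match had median deviations of -1.05, -0.92, -1.43 and -1.05, and the 51 without one -1.26, -0.73, -1.42 and -1.45. The 19 with an ETS match had -1.21, -0.73, -1.35 and -1.17, and the 49 without one -1.26, -0.80, -1.49 and -1.42.

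Other mitochondrial gene lists, chosen with earlier results of these data known, were set beside the members in these livers. The TCA cycle (11 of 13 genes measured) had list medians of 0.19, 0.44, 0.15 and 0.20, all above its range of -0.20 to 0.13 in the other 28. Regulators of mitochondrial genes (15 of 18) had 0.30, 0.01, 0.16 and 0.16, and ADP/ATP and phosphate carriers with porins (5 of 7) had 0.13, -0.37, -0.26 and 0.29. Assembly factors of complex IV (16 of 20) were low, at -0.35, -0.88, -0.84 and -0.59, with -0.50 to 0.15 elsewhere. Among them the copper chaperone Cox17 deviated by -2.38, -1.05, -2.01 and -1.80, while Cox15, which serves heme a synthesis, deviated by 0.15, 0.54, 0.45 and 0.01. Atpif1, the inhibitor of the ATP synthase, deviated by -1.77, -2.08, -1.75 and -1.02.

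Markers of hepatocytes and of other cells were set beside the members. The 9 hepatocyte markers had medians of 0.06, 0.07, 0.06 and 0.09 in the 4 livers, but they differed from each other. Alb (0.64, 1.18, 0.88 and 1.14), Hnf4a (0.06, 1.08, 1.54 and 1.01) and Cps1 (0.15, 0.97, 0.56 and 0.70) lay above their medians in all 4. Asgr1 (0.07, -0.52, -0.24 and -0.39) and Tat (-0.43, 0.59, -0.97 and 0.09) were mixed. Serpina1c was at 0.30, 0.00, 0.52 and 0.00, and Ttr, Apoa1 and Apoa2 stayed between -0.27 and 0.19. The summed signal of the 9 was 99620 to 117489 in HC+RSV+EZE, 91888 to 112145 in HC+EZE, 91969 to 113683 in HC+RSV and 91728 to 117871 in HC. The erythroid list (4 of 6 measured) had -0.33, -0.57, -0.75 and -0.27, with -0.36 to 0.79 in the other livers, so that HC+RSV replicate 3 and HC replicate 1 lay below that range and the others inside it. Its members differed. The globins Hba-a1 (-1.12, -0.85, -1.58 and -2.20) and Hbb-bt (-0.96, -1.77, -1.08 and -0.61) were below their medians in all 4 livers. Alas2, which starts heme synthesis in red cells, was mixed (0.31, -0.29, -0.41 and 0.07), and Slc4a1, the anion exchanger of red cells, was above its median in all 4 (0.76, 1.02, 0.35 and 0.44). The summed erythroid signal was 11510 to 20350 in HC+RSV+EZE, 6372 to 17409 in HC+EZE, 7511 to 17801 in HC+RSV and 3178 to 15126 in HC. The macrophage list (4 of 9 measured, without Cd68, Csf1r, Cd163, Marco and Cd5l) had 0.57, 0.39, 1.16 and 0.31, inside its range of -0.75 to 1.26 in the other livers. Its summed signal was 1380 to 2981 in HC+RSV+EZE, 2167 to 4344 in HC+EZE, 1973 to 2953 in HC+RSV and 2040 to 6543 in HC. Endothelial markers (6 measured) had 0.18, 0.02, 0.16 and 0.05, with -0.19 to 0.16 in the other livers. Stellate cell markers (7 measured) had -0.34, -0.79, -0.08 and 0.12, with -1.38 to 0.64 there. Lymphocyte markers (5 of 8) had -0.09, -0.34, -0.03 and -0.14, with -0.29 to 0.57. Cholangiocyte markers (2 of 5) had -0.49, -0.62, -0.22 and 0.82, with -0.54 to 0.79. The part of blood, macrophages or other cells in the members' levels was not tested.

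No member passed the test in a comparison of diets. Groups were compared with limma over all 8853 genes, with Benjamini-Hochberg adjustment and a threshold of 0.05, with all 32 livers and again without the 4. The median residual SD of the 79 genes was 0.51 with all livers and 0.23 without the 4, against 0.31 and 0.27 for all genes. The 3 comparisons with HC share the HC livers, of which 2 are among the 4.

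With both drugs (HC+RSV+EZE against HC) the 79 genes had a median log2 difference of 0.36, and 69 were above 0, against 48.2% of all genes. Leaving out the 4 livers gave a median of -0.05, with 23 above 0 (all genes 51.2%). For complexes I to V the medians were 0.39, 0.18, 0.40, 0.38 and 0.29 with all livers and -0.07, -0.01, -0.01, -0.05 and -0.07 without the 4. None of the 79 passed with all livers (0.0452% of all genes did; smallest adjusted p of a member 0.567), without the 4 (0.102%) or with chip as a block (0.113%). At an unadjusted p under 0.05 there were 4 members with all livers (all genes 7.46%) and 1 without the 4 (all genes 5.48%).

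Ndufa5, whose levels are given above, differed by 0.62 ± 0.36 (standard error; limma, adjusted p = 0.677) in HC+RSV+EZE against HC, and by -0.00 without the 4 livers. Ndufb4, an accessory subunit of the membrane arm at chr16:37647602-37654368 (GRCm38.p6), had 5.97, 6.58 and 6.79 in HC+RSV+EZE and 4.49, 6.19 and 6.58 in HC (lowest, median, highest). Its probe was detected on 7 of 8 HC arrays, and its lowest HC value, in replicate 1, lay near background. The groups overlapped, with means of 6.51 ± 0.26 in HC+RSV+EZE and 5.95 ± 0.68 in HC (SD, n = 8 each). The difference was 0.55 ± 0.22 (limma, adjusted p = 0.567), and 0.24 without the 4. It was 0.88 with the authors' log2 values and 0.38 with the arrays scaled to equal medians. The other members named had differences of 0.46 for Sdhaf4, 0.28 for Sdhaf3, 0.48 for Uqcrb, 0.44 for Uqcr11, 0.53 for Cox7b, 0.51 for Cox7a2, 0.57 for Atp5e and 0.46 for Atp5mpl, a small proteolipid of the ATP synthase. With the 4 left out they were 0.05, -0.01, 0.06, -0.03, 0.06, 0.13, 0.11 and 0.01.

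Chip by chip, the median difference of the members between HC+RSV+EZE and HC was 0.82 on chip 4 and 0.70 on chip 5, which hold HC replicates 1 and 8. It was 0.07, -0.07, -0.03 and -0.14 on chips 1, 2, 3 and 6. Without the 2 livers chips 4 and 5 gave -0.04 and -0.03.

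With ezetimibe (HC+EZE against HC) the median difference was 0.14, with 66 of 79 genes above 0 (all genes 49.5%). The median was -0.05, with 24 above 0, when the 4 livers were left out (all genes 51.2%). None passed with all livers (all genes 0.0452%), without the 4 (0.0565%) or with chip as a block (0.0565%). At an unadjusted p under 0.05 there were 0 members with all livers (all genes 3.64%) and 0 without the 4 (3.54%).

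Ndufc2, an accessory subunit of complex I, had 8.58, 9.92 and 10.33 in HC+EZE and 7.56, 9.80 and 10.08 in HC (lowest, median, highest), with overlap. The difference was 0.41 ± 0.30 (limma, adjusted p = 0.999), and 0.04 without the 4 livers. Atp5o, the stalk subunit that confers sensitivity to oligomycin, differed by 0.32 ± 0.21, and by 0.12 without the 4. The other genes named had differences of 0.28 for Ndufs4, 0.35 for Sdhaf4, 0.26 for Sdhaf3, 0.25 for Uqcrh, 0.17 for Uqcr10, 0.26 for Cox7a2, 0.21 for Cox4i1 and 0.27 for Atp5g1. With the 4 left out these were 0.06, 0.11, 0.05, 0.00, -0.03, 0.10, 0.06 and 0.00. The members' median difference was 0.60 on chip 4 and 0.75 on chip 5, with the low HC livers, and -0.63 on chip 3, with HC+EZE replicate 1. On chips 1, 2 and 6 it was -0.04, -0.09 and -0.05.

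With rosuvastatin (HC+RSV against HC) the median difference was 0.11, with 57 of 79 genes above 0 (all genes 50.3%). Without the 4 livers it was -0.15, with 7 above 0 (all genes 51.2%). Leaving out HC+RSV replicate 6 as well gave -0.09, with 16 above 0 (all genes 50.5%). None passed with all livers, where no gene of 8853 did (0%), without the 4 (0%) or with chip as a block (0%). At an unadjusted p under 0.05 there were 2 members with all livers (all genes 2.68%) and 6 without the 4 (all genes 3.22%).

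Sdhd, whose levels are given above, differed by -0.41 ± 0.19 in HC+RSV against HC (limma, adjusted p = 1.0), by -0.41 without the 4 livers and by -0.37 with chip as a block. The HC+RSV and HC livers overlapped between 6.64 and 7.09. Atp5a1 had 8.90, 9.13 and 9.56 in HC+RSV and 9.05, 9.27 and 9.71 in HC (lowest, median, highest) and differed by -0.25 ± 0.14, again with overlap. Sdhaf2 differed by -0.16 ± 0.14. Positive differences were measured for Ndufa6 (0.33), Ndufc1 (0.30), Uqcr11 (0.25), Uqcrh (0.25), Cox8a (0.28), Cox6b1 (0.22) and Atp5l (0.26). All 7 were negative without the 4 livers, at -0.20, -0.12, -0.13, -0.11, -0.08, -0.14 and -0.14.

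**Figure D4:**
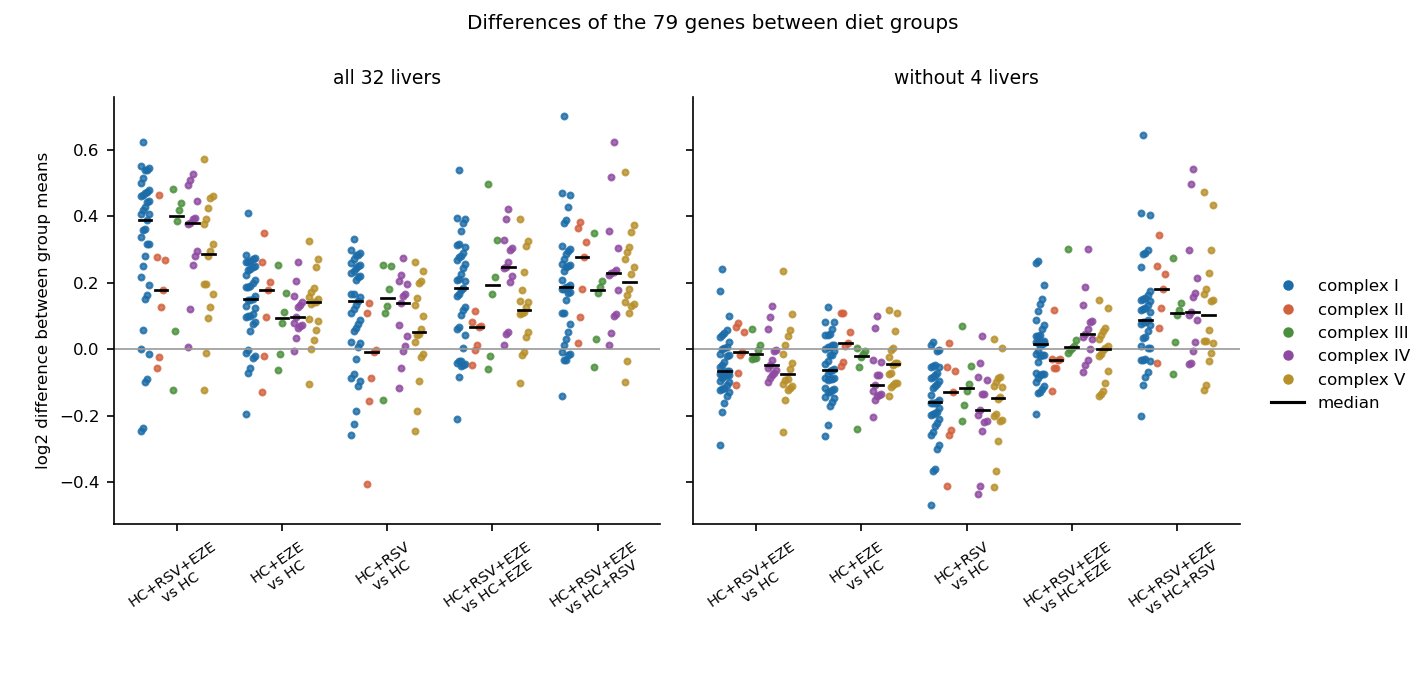
Log2 difference between group means for each of the 79 genes (points, by complex) in 5 comparisons, with all 32 livers and without HC+EZE replicate 1, HC+RSV replicate 3, HC replicate 1 and HC replicate 8; bars are the median of a complex. The medians for HC+RSV+EZE against HC lie at 0.18 to 0.40 with all livers and at -0.07 to -0.01 without the 4.

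When ezetimibe was added to rosuvastatin (HC+RSV+EZE against HC+RSV) the median difference was 0.19, with 70 above 0 (all genes 49.4%). Over the other 28 livers it was 0.11, with 62 above 0 (all genes 49.2%), and without HC+RSV replicate 6 in addition 0.05, with 49 above 0 (all genes 49.7%). None passed with all livers (all genes 0.0565%), without the 4 (0.147%) or with chip as a block (0.531%). At an unadjusted p under 0.05 there were 5 members with all livers (all genes 7.33%) and 7 without the 4 (all genes 6.09%). On chips 1 and 5, which hold HC+RSV replicates 3 and 6, the members' median difference was 0.96 and 0.52. On chips 2, 3, 4 and 6 it was -0.00, 0.05, 0.08 and 0.02.

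With all livers, the smallest adjusted p of a member in a comparison of diets belonged to Ndufb5, an accessory subunit of the membrane arm at chr3:32737057-32751559 (GRCm38.p6), which was singled out after its values were seen. Ndufb5 had 7.96, 8.46 and 9.17 in HC+RSV+EZE and 7.44, 7.83 and 8.29 in HC+RSV (lowest, median, highest), so that the groups overlapped only at their ends. The difference was 0.70 ± 0.22 (limma, adjusted p = 0.388), and 0.64 without the 4 livers (adjusted p = 0.0703).

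When rosuvastatin was added to ezetimibe (HC+RSV+EZE against HC+EZE) the median difference was 0.16, with 64 above 0 (all genes 49.4%). Over the other 28 livers it was 0.01, with 43 above 0 (all genes 50.5%). None passed with all livers (0%), without the 4 (0%) or with chip as a block (0%). At an unadjusted p under 0.05 there were 0 members with all livers (all genes 1.71%) and 0 without the 4 (all genes 1.84%).

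For the interaction of both drugs the members' median was 0.05, with 57 above 0 (all genes 49.7%), and 0.16 with 65 above 0 without the 4 livers (all genes 49.2%). None passed with all livers (0%), without the 4 (0%) or with chip as a block (0%). At an unadjusted p under 0.05 there were 0 members with all livers (all genes 1.72%) and 7 without the 4 (all genes 2.25%).

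None of the neighbouring lists had a gene past the threshold in HC+RSV+EZE against HC. Their median differences were -0.02 for the TCA cycle, -0.02 for regulators, 0.02 for carriers and porins, -0.06 for electron carriers and 0.09 for complex IV assembly. They were -0.08 for complex I assembly and -0.03 for complex III assembly. Complex II assembly, whose genes are all members, had 0.27, and the complex V list had 0.24. Without the 4 livers these last lists had 0.02 and -0.03. The gene with the largest difference was Cox17 in complex IV assembly (0.54), Acad9 in complex I assembly (-0.30), Uqcc2 in complex III assembly (0.27) and Atpif1 in the complex V list (0.33). It was Idh3a in the TCA cycle (-0.36), Ppargc1b among regulators (0.49), Vdac1 among carriers and porins (0.12) and Etfdh (-0.53), which passes electrons from fatty acid oxidation to coenzyme Q. Without the 4 livers the differences were 0.05 for Cox17, -0.18 for Acad9, -0.07 for Uqcc2 and -0.03 for Atpif1, and -0.26 for Idh3a, 0.39 for Ppargc1b, 0.17 for Vdac1 and -0.37 for Etfdh. Erythroid markers had a median of 0.36 with all livers and 0.23 without the 4, and macrophage markers -0.45 and -0.30.

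Some members differed between chips. In a test of chip beside group 6 of 79 members passed (limma's F test with Benjamini-Hochberg adjustment; all genes 27.2%), and 41 of 79 without the 4 livers (all genes 41.7%). The 41 comprised 22 of 37 genes of complex I, 5 of 7 genes of complex II, 3 of 6 genes of complex III, 4 of 13 genes of complex IV and 7 of 16 genes of complex V. Ndufb10, an accessory subunit of the membrane arm, had the smallest adjusted p (0.0018, and 8.29e-07 without the 4). Over the other 28 livers it averaged 5.0 ± 0.14 on chip 2 (SD, n = 5), 6.57 ± 0.17 on chip 1, 6.0 ± 0.36 on chip 3, 6.61 ± 0.22 on chip 4, 6.04 ± 0.14 on chip 5 and 6.21 ± 0.33 on chip 6, so that chip 2 stood apart. Sdhd was also lowest on chip 2, at 6.31 ± 0.21 (adjusted p = 0.00294).

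Other members differed by chip only once the 4 livers were left out. Ndufa5 then averaged between 9.38 ± 0.36 on chip 5 and 10.20 ± 0.19 on chip 1 (adjusted p = 7.25e-05, and 0.744 with all livers). Atp5h, subunit d of the stalk, had an adjusted p of 8.21e-05 without the 4 and 0.126 with all livers, and Atp5l 8.67e-05 and 0.96. The mean intensity per chip ran from 138.9 on chip 1 to 241.4 on chip 5, and its part in these differences was not tested.

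**Figure D5:**
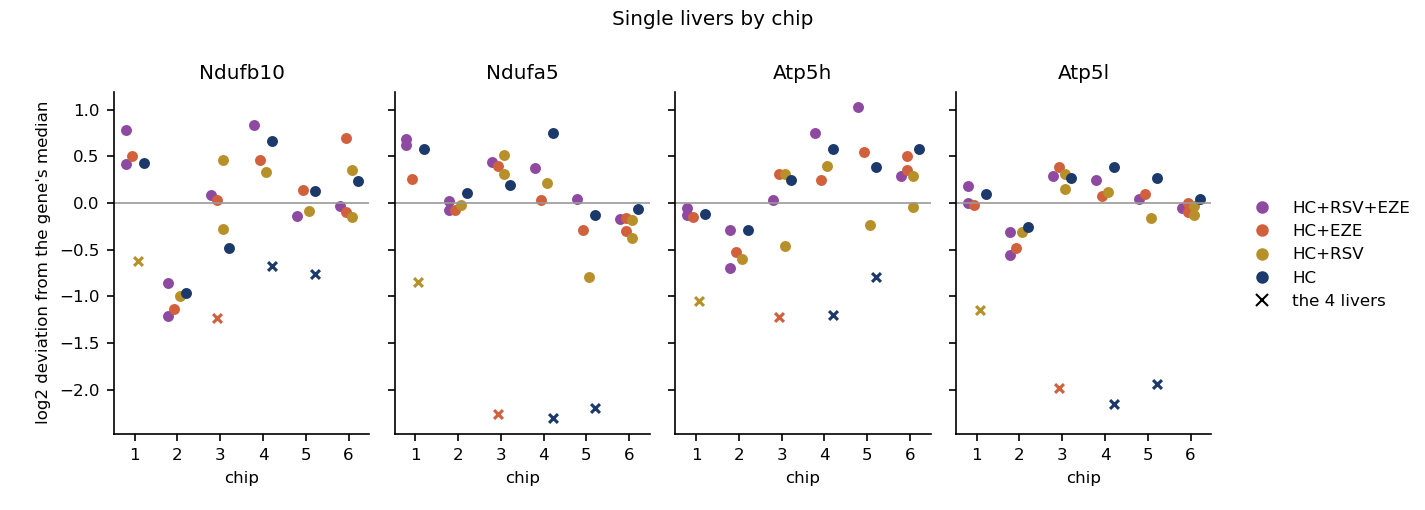
Deviation from the gene's median (log2) of Ndufb10, Ndufa5, Atp5h and Atp5l in single livers by chip (x axis) and group (colour); crosses are HC+EZE replicate 1, HC+RSV replicate 3, HC replicate 1 and HC replicate 8. Chip 2 holds the lowest mean of Ndufb10 over the other livers (5.0 as a level), and the crosses for Ndufa5 and Atp5l lie below the other livers of their chips.

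The members varied together from liver to liver. After removal of group means, the mean correlation between a pair of members over the 32 arrays was 0.55, as a description of values that share the same arrays. It was 0.00 for pairs of all genes, a value that quantile normalization keeps near 0 since it holds the arrays at a like level. Within complexes I to V the members' mean correlation was 0.60, 0.36, 0.28, 0.70 and 0.50. Without the 4 livers it was 0.32 over all members and 0.39, 0.32, 0.34, 0.28 and 0.27 within complexes. The median correlation of a member with the mean of the others was 0.91 over 32 arrays, and 0.60 over the 28. Over 32 arrays it was above 0.8 for 57 members and below 0 for 6: Uqcrc2 (-0.59), Sdhaf2 (-0.47), Atp5a1 (-0.35), Ndufv1 (-0.30), Atp5b (-0.26) and Ndufaf1 (-0.16). Only 7 members were above 0.8 over the 28, and 3 were below 0. Genes outside the members were not measured in this way. Over the 28 livers Ndufaf1 (0.51) and Ndufv1 (0.41) were nearer to the others, while Uqcrc2 (0.01), Atp5a1 (0.05), Sdhaf2 (-0.04) and Atp5b (-0.07) lay near 0.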

How the data were processed

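Liver RNA of 32 mice was measured on Illumina bead arrays, 1 animal per array and 8 per group, so the tests measure the spread of animals and arrays together. The authors deposited an intensity for each of 25697 probes and array; some lie below 0, so a background level had been subtracted, by a procedure not given in the sources used here. Beside it the authors deposited a detection value (a fraction, at most 1), and 1 minus it was used as detection p. The authors deposited normalized log2 values of 15505 probes in a second table, used as an alternative; how its probes were selected is not stated there.

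For the main values, intensities were corrected with limma's normal-exponential model on the detection p (offset 16), quantile normalized and log2 transformed in limma 3.58.1 under R 4.3.3. Kept were 12844 probes that 8 or more arrays detected (p under 0.05), of which 12026 were named; symbols were updated through the Entrez ID for 12021, an accession for 4 and kept as listed for 1, and 818 probes had no name. The brightest probe stood for each of 8853 genes. All arrays entered 1 model with a mean per group, by lmFit and eBayes (28 residual degrees of freedom), and p-values were adjusted by Benjamini-Hochberg over all genes. The chip test added chip to the model. Promoters were searched in Python 3.11.15 and figures drawn with matplotlib 3.10.9. The fit was tested on simulated data.

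The members, the gene lists and the comparison without 4 arrays were chosen with earlier results of these data known. Named by rule were, per complex, the 2 members furthest from HC in each of the 3 comparisons with HC, and the brightest; of each other list, the gene furthest from HC with both drugs. Other members given with deviations are examples picked with their values in view. Alternatives were no background correction, equal medians, cyclic loess, the authors' log2 values, dropping the probe filter or raising it to 16 arrays at p 0.01, the mean of all probes, chip or replicate number as a block, array weights, and omission of every array singly. Omitting HC+RSV replicate 6 beside the 4 arrays was added after seeing the data.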

Additional observations from a re-analysis of the deposited data

Results flagged for a closer look

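In 140 sets of 8 livers (group by gene or group by complex median) the most extreme liver was compared with the rest, and in 31 its gap to the nearest liver, as a share of the group's range, exceeded Dixon's critical value for 8 samples. Chance alone gives about 1 in 20, and the sets share livers. HC+EZE replicate 1 accounted for 27 of the 31, HC+RSV replicate 3 for 2, and HC+RSV+EZE replicates 2 and 7 for 1 each. HC has 2 low livers, replicates 1 and 8, so that the gap to the nearest one is small there.

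In HC+EZE replicate 1 the median log2 deviation was -1.23 over all members, -1.34 for complex I, -1.43 for complex III, -1.60 for complex IV and -1.14 for complex V. For complex I, the log2 levels of this liver were 9.03 for Ndufa6, 8.91 for Ndufc1, 8.58 for Ndufc2, 9.59 for Ndufs4, 7.41 for Ndufa5, 4.99 for Ndufb4 and 10.68 for Ndufa13. For complexes II and III they were 7.76 for Sdhaf4, 9.97 for Uqcr11, 10.74 for Uqcrh, 10.57 for Uqcr10 and 8.05 for Uqcrb. For complex IV they were 9.93 for Cox8a, 10.29 for Cox6b1, 5.51 for Cox7a2, 11.21 for Cox4i1, 5.44 for Cox7b and 11.11 for Cox6a1. For complex V they were 8.06 for Atp5l, 9.97 for Atp5g1, 5.49 for Atp5e and 9.78 for Atp5mpl. All were the lowest of the 8 HC+EZE livers.

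In HC+RSV replicate 3 Atp5l was lowest of its group at 8.90, and Atp5b at 13.81. In HC+RSV+EZE replicate 2 Ndufs4 was lowest at 10.40. In HC+RSV+EZE replicate 7 Uqcr11 was highest at 12.83.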

How the results depend on the processing

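No member passed between diets under any alternative run; the smallest adjusted p was 0.0703 (Ndufb5, HC+RSV+EZE against HC+RSV, without the 4 livers), and 0.142 without HC+RSV replicate 6 too. The number of members that differed by chip moved from 6 (2411 of all 8853 genes) to 16 with equal medians (4029 of all genes). It was 41 without the 4 livers (41.7% of all genes). With array weights it was 22, and without the 4 livers and HC+RSV replicate 6 it was 40. Leaving out 1 liver gave 5 to 10, the 10 without HC replicate 1. These last counts have no number of all genes beside them, so they do not single out the members. Of 30 named differences from HC, all kept their direction under 9 alternatives, among them the replicate block, which could not change them. The direction was kept by 29 with array weights (Uqcr11 turned to -0.0073 in HC+RSV), 19 without the 4 livers and 20 without HC+RSV replicate 6 too. The cause was not tested.

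With the 4 livers left out, HC+RSV differed from HC by -0.199 for Ndufa6, -0.117 for Ndufc1, -0.127 for Uqcr11, -0.105 for Uqcrh, -0.0844 for Cox8a, -0.136 for Cox6b1 and -0.143 for Atp5l. Without HC+RSV replicate 6 too it differed by -0.0985 for Ndufa6, -0.0482 for Ndufc1, -0.0738 for Uqcr11, -0.0373 for Cox8a, -0.0413 for Cox6b1 and -0.118 for Atp5l. Under both, HC+EZE differed from HC by -0.0252 for Uqcr10, and HC+RSV+EZE from HC by -0.00038 for Ndufa5, -0.0079 for Sdhaf3 and -0.0253 for Uqcr11. Leaving out 1 liver gave Uqcr10 -0.0163 to 0.388 in HC+EZE against HC, below 0 without HC replicate 1 (-0.0027) or HC replicate 8 (-0.0163).

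The members' median difference moved with single livers. Without 1 liver it ran from -0.027 (HC replicate 1 left out) to 0.199 in HC+RSV against HC, from -0.028 (HC replicate 1) to 0.312 (HC+EZE replicate 1) in HC+EZE against HC, and from 0.17 (HC replicate 1) to 0.452 in HC+RSV+EZE against HC. In HC+RSV+EZE it ran from 0.112 (HC+RSV replicate 3) to 0.269 against HC+RSV and from 0.0094 (HC+EZE replicate 1) to 0.215 against HC+EZE. With array weights the medians were -0.035, 0.021 and 0.066 in HC+RSV, HC+EZE and HC+RSV+EZE against HC. Equal medians moved the median of all genes by -0.035, -0.114 and -0.177 in these comparisons, and the members' medians there were 0.048, -0.0037 and 0.111.

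With the replicate number as a block no member passed and the median differences were 0.11, 0.14 and 0.36 in HC+RSV, HC+EZE and HC+RSV+EZE against HC. All groups hold the same numbers, so this block could not change the differences. Same-numbered livers correlated at a median of 0.18 in their deviations (48 pairs, -0.24 to 0.76, 31 over 0.1), against -0.06 for others. HC+RSV and HC+EZE livers of the same number shared a chip, and over all groups odd and even numbers lay on different chips. Number and chip therefore cannot be fully told apart, and the part of chip in these correlations was not tested. The chip test was not run with this block. The precision is limited by 8 arrays per group and by dim probes, such as those of Ndufab1 and Cox6a2.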
